A study of Mus musculus with 8 samples.

Results

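The Serpin genes were examined in mouse prostate tumours: every gene on the array whose annotated mouse symbol starts with Serpin, each read from its brightest probe. There were 49 such genes, measured by 60 probes, among 16593 named genes and 25697 probes in all. Whole-tissue RNA of 8 samples was hybridised to Illumina beadchips, 1 array each, on which the light of a probe stands for the abundance of its transcript. All mice were C57Bl/6. Wild-type mice gave non-tumour prostate at 30 weeks (n = 2), and untreated TRAMP mice gave prostate tumours at 30 weeks (n = 2). TRAMP mice treated with cromolyn (sodium chromoglycate, a drug that keeps mast cells from releasing their granules) from 8 weeks of age gave tumours at 24 weeks (n = 3), and a KitW-sh TRAMP mouse, deficient in mast cells by a Kit mutation, gave 1 tumour at 24 weeks. TRAMP mice carry a transgene in which the probasin promoter drives viral T antigens in prostate epithelium. Age goes with the groups, so age and the loss of mast cell function cannot be told apart in any comparison of a 24-week tumour with a 30-week sample. The labels do not say whether replicates were separate animals, so the spread behind each p-value is that of these samples and may be technical.

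Serpins are a family of proteins that share 1 fold, and most of them block serine proteases by acting as a bait that traps the enzyme in a stable complex. Clade letters follow sequence. Clade A holds secreted antitrypsin-like and antichymotrypsin-like inhibitors and hormone carriers, most of them known from liver, and clade B holds intracellular inhibitors known from epithelia and blood cells. Clades F, G, H and I include the antiangiogenic protein PEDF, the complement C1 inhibitor, the collagen chaperone Hsp47 and the neuronal inhibitor neuroserpin. In prostate, where secretions are rich in proteases, serpins are among the inhibitors known to hold these enzymes in check.

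Most Serpin genes were not above background in these tissues. A probe was called above background when its deposited intensity passed 216.8, the intensity that 1% of background probes would exceed, which is 7.01 on the log2 scale used for all levels here. By this limit 18 of 49 Serpin genes (36.7%) were above background on at least 1 array, against 72% of all named genes. A further 31 were above it on no array, 9 passed it on 1 or 2 arrays, and 6 passed it on all 8. Levels within a fraction of the limit are uncertain: Serpina1d at 216.3, Serpina1e at 214.5 and Serpinb3d at 211.2 fell just short on their brightest array, while Serpina1c at 218.5, Serpina4-ps1 at 221.4 and Serpina1b at 232.3 just passed. A gene that did not pass was not well above background with its probe, and no more can be said of it.

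By clade, 8 of 16 clade A genes, 6 of 25 clade B genes, 1 of 2 clade F genes, the single clade G and clade H genes and 1 of 2 clade I genes passed on at least 1 array, and the single clade C and clade D genes did not. The clade C gene is Serpinc1 (antithrombin) and the clade D gene Serpind1 (heparin cofactor II), both liver-made inhibitors of clotting. The remaining genes that passed on no array were Serpina10, Serpina11, Serpina12, Serpina1a, Serpina1d, Serpina1e, Serpina5 and Serpina7 in clade A, Serpinf2 (antiplasmin), Serpini2, and in clade B Serpinb10, Serpinb12, Serpinb13, Serpinb1b, Serpinb1c, Serpinb3a, Serpinb3c, Serpinb3d, Serpinb5 (maspin, known from basal epithelium), Serpinb6d, Serpinb6e, Serpinb7, Serpinb8, Serpinb9, Serpinb9b, Serpinb9c, Serpinb9d, Serpinb9e and Serpinb9g. Of the clade B genes on chromosome 13, 4 of 14 passed, namely Serpinb1a, Serpinb6a, Serpinb6b and Serpinb6c, and of those on chromosome 1, 2 of 11 passed, namely Serpinb11 and Serpinb2. All 8 clade A genes that passed lie on chromosome 12, where 15 of the 16 are. Many members of these clusters are near copies of each other, so a probe named for one may also bind its neighbours, and the Serpina1, Serpina3, Serpinb1 and Serpinb6 names are uncertain to that extent.

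More Serpin genes were above background in wild-type prostate than in the tumours. The count was 12 and 13 on the wild-type arrays, 11 and 9 on the untreated TRAMP arrays, 8, 9 and 9 on the cromolyn arrays and 9 on the KitW-sh array. The wild-type arrays were the highest, with no overlap with the tumours. The share of all probes that passed was 56.4% to 56.5% on every array. That share was fixed beforehand, because the deposited values have nearly the same distribution on every array, so it is no measure for the gap. Clade A made most of the gap, with 3 and 5 genes in wild type, 3 and 2 in untreated TRAMP, 1, 2 and 2 with cromolyn and 1 with KitW-sh. At its closest the gap was 12 against 11, with 3 clade A genes on each of those 2 arrays. Genes that just passed the limit are counted on both sides. They include Serpina1b and Serpina1c on wild_type replicate 2, and Serpina4-ps1 on TRAMP_30wk replicate 1 and TRAMP_cromolyn replicate 3. These counts carry no test, and the wild-type arrays differed between themselves: each of the 6 genes above background on all arrays was higher on wild_type replicate 2 than on replicate 1.

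**Figure D1:**
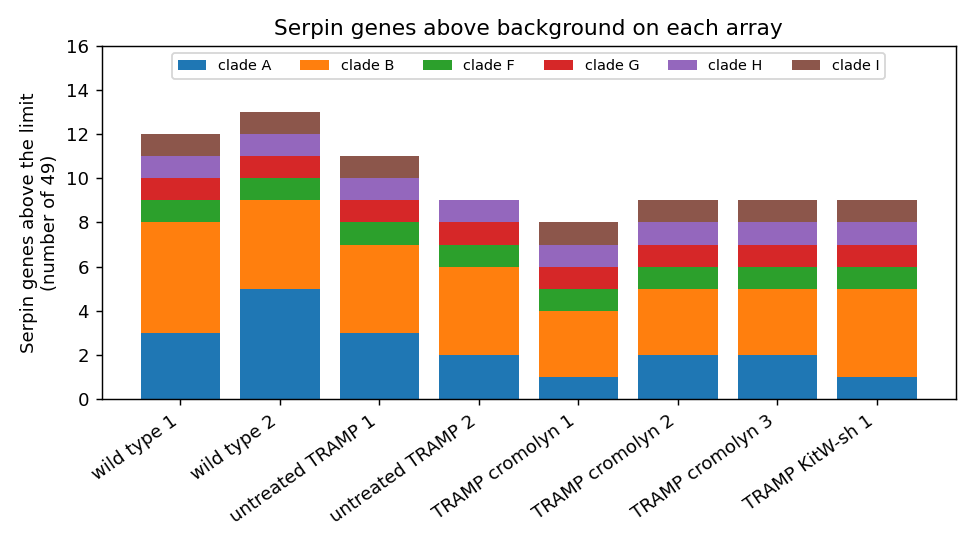
Number of Serpin genes (of 49) above the intensity limit on each of the 8 arrays, coloured by clade. The 2 wild-type bars reach 12 and 13 and the tumour bars 8 to 11, and no gene of clades C and D was above the limit.

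Cell type markers and array quality set the frame for what follows. Over all features, which are not independent, replicate arrays correlated at 0.93 to 0.984, and untreated tumours correlated with 24-week tumours at 0.771 to 0.825. The luminal epithelium marker list (8 of 12 genes on the array) summed to intensities of 110825 to 161892 in the 30-week arrays and to 1782 to 4420 in the 24-week tumours, whose keratin gene Krt18 was at 6.54 to 8.63 against 13.35 to 13.50 at 30 weeks. The neuroendocrine and neural list went the other way, 1384 to 3230 at 30 weeks and 41776 to 50943 at 24 weeks. Several epithelial markers of prostate were thus low in the samples labelled as 24-week prostate tumours, but not all of the list. Hoxb13 read 6.73 to 7.40 on the 30-week arrays and 5.99 to 7.27 in the 24-week tumours. Cd24a read 8.28 to 8.84 and 8.11 to 8.87. Of 6 mast cell genes on the array, Cpa3, Cma1 and Mcpt4 were above background on all 30-week arrays and on none of the 24-week tumours, Tpsb2 likewise but on 1 of 2 untreated TRAMP arrays, and Ms4a2 on none. Hdc, the histamine-forming enzyme, was above it on all 8, at 8.57 and 7.72 in untreated TRAMP, 7.48 to 7.90 with cromolyn, and higher with KitW-sh than on either untreated array.

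**Figure D2:**
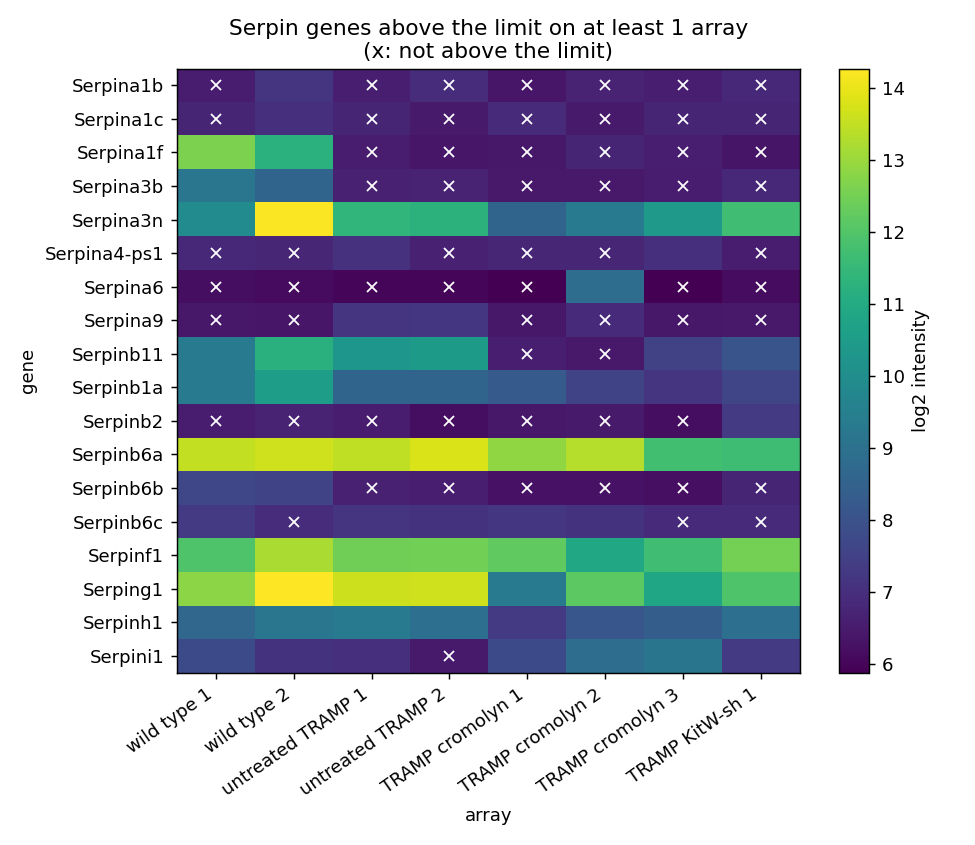
Log2 intensity of the 18 Serpin genes above the limit on at least 1 array, 1 row per gene and 1 column per array, with a cross where the array was not above the limit. Rows come from different probes and should be read only along the row. Serpina1f and Serpina3b are bright in the wild-type columns alone, and Serpinb6a, Serpinf1 and Serping1 are bright in every column.

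Of the 18 genes tested, untreated TRAMP tumours differed from wild-type prostate in 3, all lower: Serpina1f, Serpina3b and Serpinb6b. Calls rest on limma's moderated test at an adjusted p under 0.05 over 13027 features, of which 6.63% were called in this comparison (3.74% higher and 2.89% lower). The median log2 difference of the 18 was -0.12, beside -0.01 over all features. The other 15 did not pass. The 3 lower genes are a larger share of the 18 than 2.89%, a difference that was not tested. Each of the 3 was above background in wild type only, so it entered the 18 through the group where it was high. Their share therefore cannot be read as a trait of the family. Since a gene enters the test by being above background in any group, these counts do not describe all 49.

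Serpina1f, an antitrypsin-family member known from mouse epididymis, had the widest gap. Its levels were 12.60 and 11.24 in wild type, 6.52 and 6.38 in untreated TRAMP, 6.43, 6.73 and 6.59 with cromolyn and 6.35 with KitW-sh. It was bright on both wild-type arrays and not above background on any tumour array. Against untreated TRAMP the fitted log2 difference was -5.47 ± 0.42 (SE, limma adjusted p = 0.00131). Because no tumour array passed the limit, the fold is a bound: Serpina1f was at least 30-fold lower in untreated TRAMP than in wild type.

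Serpina3b, of the antichymotrypsin family, followed the same pattern at a lower level. It read 9.16 and 8.58 in wild type, 6.66 and 6.70 in untreated TRAMP, 6.44, 6.46 and 6.56 with cromolyn and 6.86 with KitW-sh. Wild type stood apart from every tumour, and no tumour array passed the limit. It was at least 3.63-fold lower in untreated TRAMP (log2 difference -2.19 ± 0.22, limma adjusted p = 0.00312).

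Serpinb6b, an intracellular clade B member, read 7.67 and 7.59 in wild type, 6.65 and 6.58 in untreated TRAMP, 6.29, 6.29 and 6.22 with cromolyn and 6.73 with KitW-sh. It too was above background in wild type only, but not far above it. It was at least 1.53-fold lower in untreated TRAMP (log2 difference -1.01 ± 0.16, limma adjusted p = 0.0149). This call was lost without any 1 of the 4 arrays compared: without wild_type replicate 1 or 2 the adjusted p was 0.0596 or 0.0582, and without TRAMP_30wk replicate 1 or 2 it was 0.115 or 0.151. With the deposited intensity used without background correction the log2 difference was -0.62.

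Some markers of neighbouring ducts and of other tissues were also lower in untreated TRAMP. Of the epididymis list 2 of 5 genes tested were called lower. The list (9 genes on the array) summed to 21841 to 24800 in wild type, to 1735 to 1846 in untreated TRAMP, to 1708 to 1785 with cromolyn and to 1673 with KitW-sh. Of the 9, the beta-defensin gene Defb42 (14.44 and 14.26 in wild type) and Wfdc10 (9.52 and 9.28) were bright in wild type and made most of the sum. Cst11 was above background on all 8 arrays at 7.45 to 7.73 and Lcn8 on 7 of them at 6.97 to 7.35, with no such gap, and Adam7 passed on wild_type replicate 1 alone. Lcn5, Rnase9, Spag11b and Ovch2 were not above background on any array. The seminal vesicle list was high in wild type, at 221090 to 244020, and on 1 of the 2 untreated TRAMP arrays, at 232899 against 2407 on the other. Skeletal muscle markers were called lower in 4 of 5 genes tested (the creatine kinase gene Ckm was at 11.93 and 12.32 in wild type and 7.64 and 7.26 in untreated TRAMP), adipocyte markers in 4 of 6 and basal epithelial markers in 2 of 8. The part of these tissues in the fall of Serpina1f, Serpina3b and Serpinb6b was not tested, and in bulk tissue fewer cells of a type and less RNA per cell cannot be told apart.

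The promoters of the 3 genes that fell together are shown with that of Serpini1, which rose in the cromolyn tumours. Each is 300 bases of the mouse reference (RefSeq, build GRCm38.p6) around the gene's start, ending 50 bases after it, and is written 5′ to 3′ on the gene's strand. Capitals mark matches, on either strand, to 4 motifs: the androgen receptor half-site AGAACA, the STAT site TTCNNNGAA, the heat shock element GAANNTTC and the core promoter box TATAAA. The matches did not overlap each other. Serpina1f lies at chr12:103695480-103695779 on the minus strand, Serpina3b at chr12:104127746-104128045, Serpinb6b at chr13:32965011-32965310 and Serpini1 at chr3:75557243-75557542, these last on the plus strand.
Serpina1f: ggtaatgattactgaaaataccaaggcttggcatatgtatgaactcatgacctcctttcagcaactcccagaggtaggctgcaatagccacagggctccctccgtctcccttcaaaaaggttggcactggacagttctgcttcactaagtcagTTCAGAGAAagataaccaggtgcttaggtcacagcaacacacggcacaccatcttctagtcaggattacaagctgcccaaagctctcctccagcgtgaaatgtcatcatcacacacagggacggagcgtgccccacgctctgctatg
Serpina3b: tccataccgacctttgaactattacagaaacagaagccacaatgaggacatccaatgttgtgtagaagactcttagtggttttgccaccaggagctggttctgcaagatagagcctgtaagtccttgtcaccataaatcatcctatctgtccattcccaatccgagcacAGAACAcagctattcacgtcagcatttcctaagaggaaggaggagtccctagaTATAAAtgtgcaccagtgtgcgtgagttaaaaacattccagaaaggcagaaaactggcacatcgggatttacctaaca
Serpinb6b: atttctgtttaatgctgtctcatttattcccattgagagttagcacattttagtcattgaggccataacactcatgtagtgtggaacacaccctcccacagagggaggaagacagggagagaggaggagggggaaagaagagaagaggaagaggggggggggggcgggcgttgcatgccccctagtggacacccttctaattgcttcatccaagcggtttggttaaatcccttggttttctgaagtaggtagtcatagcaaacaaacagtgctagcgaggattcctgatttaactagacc
Serpini1: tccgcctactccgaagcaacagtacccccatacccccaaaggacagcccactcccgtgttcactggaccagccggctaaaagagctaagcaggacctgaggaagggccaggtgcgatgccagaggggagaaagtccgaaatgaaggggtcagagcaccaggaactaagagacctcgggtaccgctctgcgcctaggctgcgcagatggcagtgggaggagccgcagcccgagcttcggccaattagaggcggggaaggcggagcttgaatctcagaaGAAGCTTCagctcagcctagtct
Serpina1f held a STAT match 97 bases before its start. Serpina3b held an androgen half-site match 81 bases before its start and a TATA match 28 bases before it, Serpinb6b held none of the 4, and Serpini1 held a heat shock match after its start. Over 32851 promoters of this length AGAACA was found in 19%, TTCNNNGAA in 8.3%, GAANNTTC in 7.86% and TATAAA in 13.6%. Over the 50 promoters of the 42 Serpin genes matched, the shares were 34%, 14%, 10% and 28%. These are matches of letters, in near copies of the same genes in part, and not sites. In gene order Serpina1f lies between Serpina16 and Serpina1b, and Serpinb6b between Serpinb1c and Serpinb9. Serpinb1c and Serpinb9 were above background on no array and Serpina1b on 1.

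**Figure D3:**
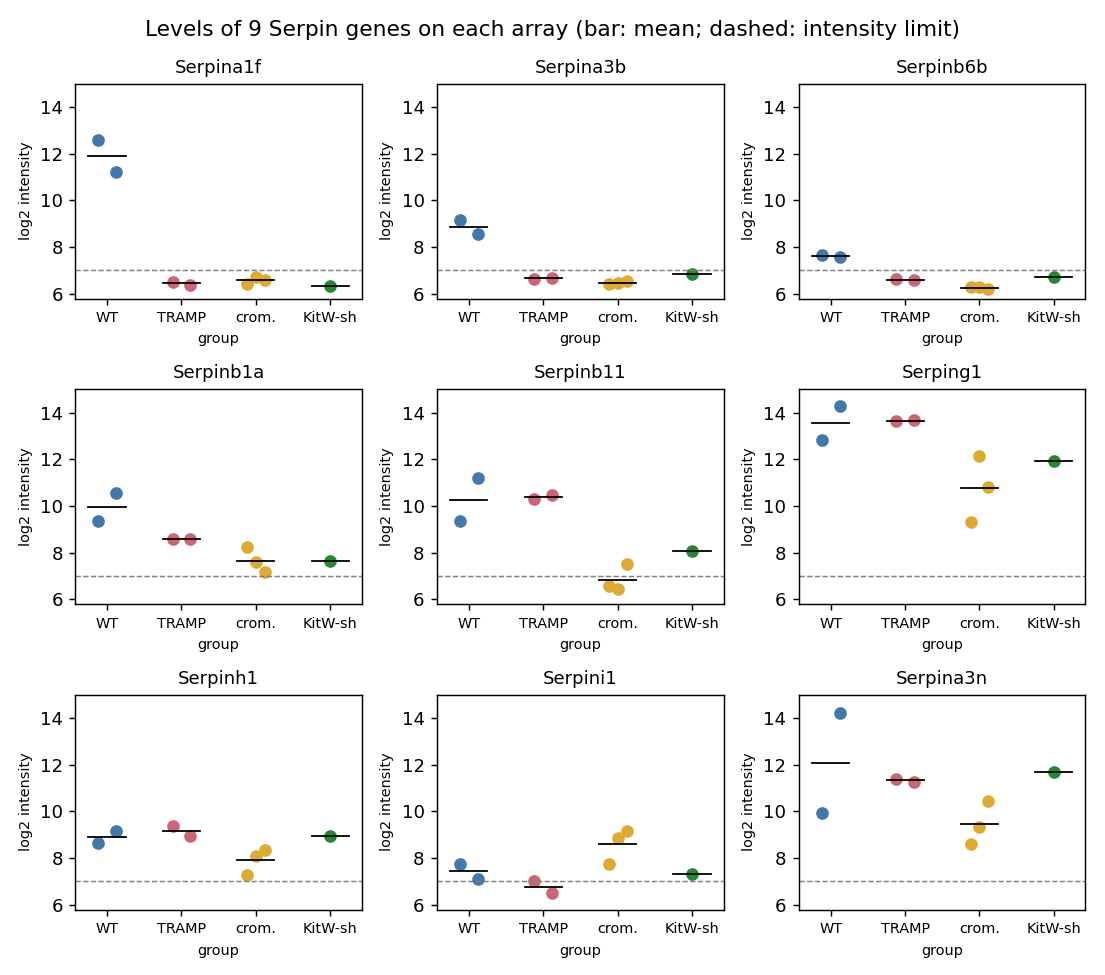
Log2 intensity of 9 Serpin genes on each array (points), by group, with the group mean (bar) and the intensity limit at 7.01 (dashed). Serpina1f, Serpina3b and Serpinb6b are above the limit in wild type only, Serpinb11 falls in the 24-week tumours, and Serpini1 is highest with cromolyn.

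The cromolyn tumours were set against untreated TRAMP tumours to ask what differs when mast cells are stabilised. Of the 18 genes tested, Serpini1 rose and Serpinb11, Serping1 and Serpinh1 fell. Over all features 37% were called in this comparison (18.9% higher, 18.1% lower), so 4 of 18 is not above the background share. The median log2 difference of the 18 was -0.27, beside 0.05 over all features.

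Serpinb11, a clade B serpin, fell most. It read 10.29 and 10.45 in untreated TRAMP, 6.57, 6.46 and 7.51 with cromolyn, 8.06 with KitW-sh, and 9.34 and 11.19 in wild type. All 30-week arrays were higher than all 24-week arrays, and only 1 of 3 cromolyn arrays passed the limit. With cromolyn the log2 difference was -3.52 ± 0.57 (limma adjusted p = 0.00384), and the call held under every alternative run. Serpinb11 in the KitW-sh tumour was lower than in untreated TRAMP by a log2 difference of -2.32 ± 0.76, which did not pass (limma adjusted p = 0.0739). Its neighbours in gene order, Serpinb3c and Serpinb7, were above background on no array.

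Serping1 encodes C1 inhibitor, which blocks the first proteases of the complement cascade and of the contact system. Its levels were 13.63 and 13.67 in untreated TRAMP, 9.31, 12.16 and 10.83 with cromolyn, 11.94 with KitW-sh, and 12.81 and 14.27 in wild type. Every cromolyn array lay below every 30-week array, and the KitW-sh array lay within their range. The log2 difference with cromolyn was -2.88 ± 0.81 (limma adjusted p = 0.032). The call was lost without TRAMP_30wk replicate 1 (adjusted p = 0.135), TRAMP_30wk replicate 2 (0.138) or TRAMP_cromolyn replicate 3 (0.0756).

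Serpinh1 encodes Hsp47, the chaperone that procollagen needs in the endoplasmic reticulum. It read 9.36 and 8.95 in untreated TRAMP, 7.30, 8.11 and 8.34 with cromolyn, 8.96 with KitW-sh, and 8.63 and 9.16 in wild type. The cromolyn arrays lay below all others. The log2 difference was -1.24 ± 0.35 (limma adjusted p = 0.032), and it was lost without TRAMP_30wk replicate 1 (0.192) or replicate 2 (0.0882). Of its collagen clients, Col1a1 was at 12.80 and 12.28 in untreated TRAMP, 9.60, 10.66 and 11.04 with cromolyn, 12.11 with KitW-sh, and 10.63 and 12.63 in wild type. Col4a1 did not follow that order, at 13.08 and 12.92 in untreated TRAMP and 12.52, 13.79 and 12.51 with cromolyn. The fibroblast list summed to 37072 to 44435 in untreated TRAMP, 10291 to 19462 with cromolyn and 33750 with KitW-sh. Of its 8 genes, 4 were called lower with cromolyn than in untreated TRAMP. Not all went down: Fbln1 read 11.85 and 11.91 in untreated TRAMP and 12.01, 12.01 and 13.04 with cromolyn. Pdgfra read 11.06 on both untreated arrays and 11.59, 9.18 and 10.52 with cromolyn. The part of fibroblast content in the levels of Serpinh1 and Serping1 was not tested.

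Serpini1 encodes neuroserpin, the inhibitor of tissue plasminogen activator known from neurons. It read 7.01 and 6.49 in untreated TRAMP, 7.77, 8.88 and 9.15 with cromolyn, 7.31 with KitW-sh, and 7.76 and 7.10 in wild type. All cromolyn arrays lay above all other arrays, though the lowest of them was barely above wild_type replicate 1. The log2 difference was 1.85 ± 0.45 (limma adjusted p = 0.018), and the adjusted p was 0.0624 without TRAMP_30wk replicate 1 and 0.124 without replicate 2. The neuroendocrine and neural list was high in all 24-week tumours and summed to 50943 in the KitW-sh tumour, where Serpini1 lay within the wild-type range. Of the 6 list genes tested, 5 were called higher than in untreated TRAMP both with cromolyn and with KitW-sh. The list was not uniform. Scg2 read 7.83, 13.39 and 10.63 with cromolyn, 7.29 with KitW-sh, and 8.19 and 8.59 in wild type. Snap25 was above background on no array. The part of neural content in the level of Serpini1 was not tested. Plat, the target of neuroserpin, was not above background on any array.

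**Figure D4:**
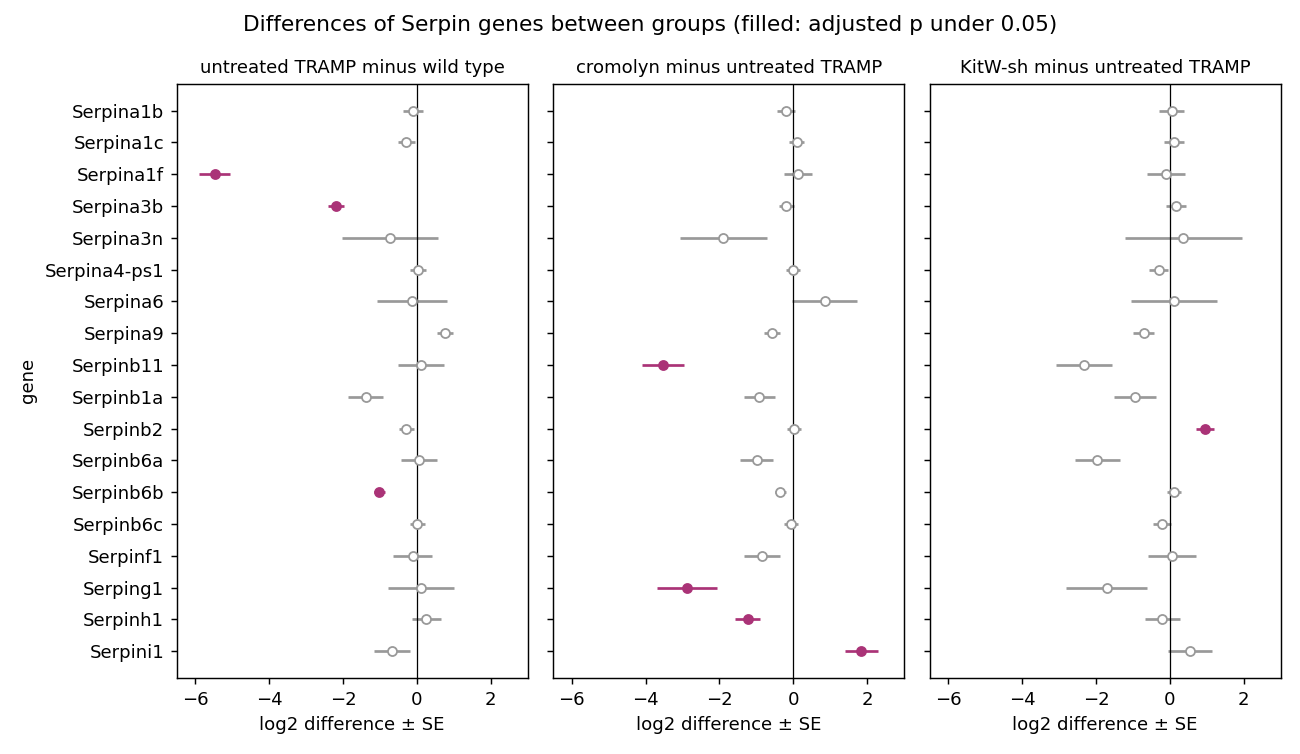
Log2 difference ± SE (limma) of the 18 Serpin genes tested in 3 comparisons; filled points passed at an adjusted p under 0.05. Serpina1f, Serpina3b and Serpinb6b are filled in the left panel, Serpinb11, Serping1, Serpinh1 and Serpini1 in the middle panel and Serpinb2 in the right panel.

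The KitW-sh tumour, a single array assumed to vary like the others, was set against the same untreated TRAMP arrays to ask what differs when mast cells are absent by genotype. Serpinb2 was the 1 of 18 Serpin genes called, and it was higher. It was above background on the KitW-sh array only, so it entered the 18 through the array where it was high. The call therefore cannot be read as a trait of the family. Over all features 22.6% were called (11.4% higher, 11.2% lower), and the median log2 difference was -0.02 for the 18 and 0.02 for all features. Serpinb2 encodes PAI-2, an inhibitor of urokinase. It read 7.29 in the KitW-sh tumour and 6.18 to 6.71 on the other 7 arrays, none of which passed the limit, so it was at least 1.21-fold higher than in untreated TRAMP (log2 difference 0.95 ± 0.25, limma adjusted p = 0.0385). The value lies near the limit on 1 array, and the adjusted p was 0.0504 to 0.179 without either untreated, either wild-type array or TRAMP_cromolyn replicate 1. With the deposited intensity used without background correction the log2 difference was 0.53 (adjusted p = 0.0621).

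Serpinb6a, the mouse counterpart of a human inhibitor of cathepsin G, was bright on every array. It read 13.50 and 13.66 in wild type, 13.47 and 13.81 in untreated TRAMP, 12.87, 13.34 and 11.73 with cromolyn and 11.68 with KitW-sh. All 24-week tumours lay below all 30-week arrays. No comparison passed: the log2 difference from untreated TRAMP was -1.96 ± 0.60 with KitW-sh (limma adjusted p = 0.0606, 95% interval -3.40 to -0.52 before adjustment) and -0.99 ± 0.45 with cromolyn (0.133). Against wild type the KitW-sh difference was -1.91 ± 0.60 (0.0531). Against untreated TRAMP it passed with only the groups compared (0.00207), and without TRAMP_cromolyn replicate 2 (0.026) or 3 (0.0109). The KitW-sh and cromolyn tumours differed from each other in none of the 18 Serpin genes by limma, with 2 of 18 at an unadjusted p under 0.05 (Serpinb2 and Serpinb6b), while 0.023% of all features were called in either direction, 0.023% higher and 0% lower.

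Against wild type, 6 Serpin genes were lower in the cromolyn tumours and 4 in the KitW-sh tumour, and by limma none was higher, with 1 higher in each at an unadjusted p under 0.05. The backgrounds were 45.9% (23% higher, 22.9% lower) and 31.2% (15.9% higher, 15.3% lower). These comparisons share the wild-type arrays with each other and with untreated TRAMP against wild type, so the calls are not independent. The 6 with cromolyn were Serpina1f (at least 30-fold), Serpina3b (at least 3.63-fold), Serpinb6b (at least 1.53-fold), Serpinb11, Serpinb1a and Serping1. The 4 with KitW-sh were Serpina1f, Serpina3b, Serpinb6b and Serpinb1a. The median log2 difference of the 18 was -0.95 with cromolyn, beside 0.03 over all features, and -0.24 with KitW-sh, beside -0.00. Serpina1f, Serpina3b and Serpinb6b were above background in wild type only, so they entered the 18 through the group where they were high. These counts and medians therefore cannot be read as a trait of the family.

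Serpinb1a inhibits the neutrophil proteases elastase, cathepsin G and proteinase 3. It read 9.37 and 10.55 in wild type, 8.58 and 8.57 in untreated TRAMP, 8.24, 7.58 and 7.16 with cromolyn and 7.64 with KitW-sh. Each tumour array was below both wild-type arrays, and the 24-week tumours were the lowest. Against wild type the log2 difference was -2.30 ± 0.43 with cromolyn (limma adjusted p = 0.00526) and -2.32 ± 0.57 with KitW-sh (0.0239, and 0.0677 without wild_type replicate 2). In untreated TRAMP it was -1.38 ± 0.47 and did not pass (0.148). Of its targets, proteinase 3 (Prtn3) read 7.10 and 8.94 in wild type, 6.95 and 6.70 in untreated TRAMP, 8.79, 8.41 and 9.29 with cromolyn and 8.80 with KitW-sh. It was at least 3.53-fold higher with cromolyn than in untreated TRAMP (limma adjusted p = 0.026), while 1 wild-type array lay among the cromolyn arrays. Elastase (Elane) passed the limit on 1 of 8 arrays and cathepsin G (Ctsg) on none. Serping1 against wild type was -2.77 ± 0.81 with cromolyn (0.0308) and lost its call without wild_type replicate 2 (0.185), either untreated TRAMP array (0.0547) or TRAMP_cromolyn replicate 3 (0.0713), and with only the groups compared (0.0547).

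Several secreted serpins were bright but uneven between replicates. Serpina3n, an acute-phase serpin of the antichymotrypsin family, read 9.92 and 14.22 in wild type, 11.41 and 11.28 in untreated TRAMP, 8.59, 9.32 and 10.43 with cromolyn and 11.71 with KitW-sh. The wild-type arrays bracketed most of the tumours, and no comparison passed (cromolyn against untreated TRAMP -1.90 ± 1.18, limma adjusted p = 0.259). Without either wild-type array this adjusted p was 0.0431, because those 2 arrays no longer entered the spread. The macrophage list differed the same way between the wild-type arrays, 6443 on replicate 1 and 33589 on replicate 2. Of the 6 neutrophil genes on the array, S100a8 read 6.45 and 9.91, S100a9 5.96 and 8.44, and Ngp 6.31 and 7.05. Mpo (6.79 and 6.80), Elane (6.89 and 6.89) and Camp (6.58 and 6.42) showed no such gap and were not above background on these arrays. The part of these cells in the level of Serpina3n was not tested.

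Serpinf1 encodes PEDF, an antiangiogenic serpin that inhibits no protease. It read 11.95 and 13.19 in wild type, 12.44 and 12.48 in untreated TRAMP, 12.24, 10.91 and 11.68 with cromolyn and 12.52 with KitW-sh, and no comparison passed. Serpinb6c stayed near the limit everywhere, at 6.92 to 7.31. Serpina6, the corticosteroid carrier of plasma, was above background on 1 array, TRAMP_cromolyn replicate 2, at 8.86. Serpina9 passed on the untreated TRAMP arrays alone, at 7.12 and 7.20 against 6.39 to 6.92 elsewhere, and its rise over wild type did not pass (0.77 ± 0.22, limma adjusted p = 0.103, and 0.0321 without TRAMP_cromolyn replicate 2). Serpina1b and Serpina1c passed on wild_type replicate 2 only, at 7.18 and 7.03. Of 11 liver markers on the array, Alb, Apoa1, Fgb, Fga, Tat and Apoh were above background on no array, Fgg on 1, Ahsg on 5, Apoa2 and Cyp2e1 on 6 each and Ttr on all 8, Ttr and Cyp2e1 being known from other tissues too.

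The proteases, receptors and clients of serpins were followed as a list, of which 58 genes were on the array and 46 tested. In untreated TRAMP against wild type none of the 46 rose (3 at an unadjusted p under 0.05) and 2 fell, where 3.74% of all features rose and 2.89% fell: Plau, the urokinase gene, by a log2 difference of -4.05 ± 0.49 (limma adjusted p = 0.00646), and the membrane protease gene Hpn, at least 1.92-fold (0.0306). Plau read 13.63 and 13.02 in wild type and 8.70 and 9.84 in untreated TRAMP. With cromolyn against untreated TRAMP 3 of 46 rose and 14 fell, where 18.9% of all features rose and 18.1% fell. The list's median log2 difference was -0.47, beside 0.05 over all features. The vitronectin gene Vtn rose by 2.79 ± 0.50 (0.00565), and the epithelial membrane proteases Tmprss2 (-6.37 ± 0.76, adjusted p = 0.00115), Prss8 (-5.27 ± 0.44, adjusted p = 0.000284) and St14 (-4.99 ± 0.20, adjusted p = 2.79e-05) fell. Each of these 3 was above background on 1 of 3 cromolyn arrays, so the log2 differences rest in part on values at background. P4hb, above background on all 3, also fell (-1.47 ± 0.19, limma adjusted p = 0.00168). With KitW-sh 1 of 46 rose, the cathepsin L gene Ctsl (at least 1.77-fold), and 6 fell, where 11.4% of all features rose and 11.2% fell. Among those that fell were St14 (-4.33 ± 0.26), Prss8 (-3.94 ± 0.59), P4hb (-1.37 ± 0.26) and Tmprss2 (-3.93 ± 1.03). The epithelial proteases St14, Prss8 and Tmprss2 stood low on the same arrays as Krt18, and the part of epithelial content in this was not tested.

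Against wild type 2 of 46 partner genes rose and 15 fell with cromolyn, where 23% of all features rose and 22.9% fell. With KitW-sh none of 46 rose (1 at an unadjusted p under 0.05) and 12 fell, where 15.9% rose and 15.3% fell, and none passed between KitW-sh and cromolyn by limma, with 4 higher and 1 lower at an unadjusted p under 0.05. Plat, Plg, F3, F7, F11, F12, Klk11, Gzma, Gzmb, C1ra and Mbl2, proteases or cofactors that serpins are known to meet in blood and tissue, were not above background on any array. The complement protease gene C1s1, a target of C1 inhibitor, read 9.90 and 8.68 in untreated TRAMP, 6.81, 7.04 and 7.14 with cromolyn and 7.51 with KitW-sh, so it stood low where Serping1 did.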

How the data were processed

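The 8 Illumina beadchip arrays were grouped by the labels. The deposited values are intensity per probe on a linear scale, processed by the authors with BeadStudio, per the submitters' processing notes, with no version given. Sorted log2 values of any 2 arrays lay within 0.0489 of each other, as quantile normalization by the authors leaves them, and the lowest intensity was 123.8, so no background had been taken off. Another table, whose 16 columns carry slide positions that the labels do not explain, was not used here. From the deposited intensity, background was corrected with normexp (offset 50), then quantile normalization and log2 were applied. The background mode (181.2) and SD (15.3) were read from the dim side of intensities under 300. The brightest probe above the limit was kept per gene, and 10 of the 49 Serpin genes had several probes, of which 1, Serpina1b, had a probe above the limit.

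The test was limma's (version 3.58.1, R 4.3.3), with a mean for each group and a common residual spread on 4 degrees of freedom plus 2.62 from the prior. P-values were two-sided with Benjamini-Hochberg adjustment, separately for the 6 comparisons. Where no array of a group passed the limit, folds were taken against it and given as at least a value. Named were Serpin genes called in any comparison or above the limit on all arrays, with others by name and count, and up to 4 partner genes a direction with the smallest p. Genes outside this rule that are given with values were chosen after their values were seen. The members, the lists and the tests were chosen with earlier results of these data known. Gene names came from a table of assembly GRCm38.p6. The steps were tested on simulated data. Precision is limited by how few arrays there are.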

Additional observations from a re-analysis of the deposited data

Results flagged for a closer look

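In 2 of the 6 genes above background on all arrays, every cromolyn array lay below both untreated TRAMP arrays while the KitW-sh array lay above both. The share of all features in this order was not counted, so 2 of 6 cannot be read as unusual. Serpina3b and Serpinb6b stood in the same order at levels that no tumour array showed to be above background. For Serpina3n the KitW-sh tumour was 2.26 above the cromolyn mean on the log2 scale (95% interval -1.32 to 5.84), and for Serpinf1 it was 0.91 above it (-0.53 to 2.36). Neither difference passed the test (limma unadjusted p = 0.178 and 0.177), and the KitW-sh group is 1 array.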

How the results depend on the processing

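Of 18 gene calls over the 6 comparisons, 10 held under every alternative run and none reversed. Serpina1f and Serpina3b against wild type (3 comparisons each), Serpinb11 with cromolyn (2) and Serpinb1a and Serpinb6b with cromolyn against wild type are these 10. With cromolyn against untreated TRAMP, 1 to 6 Serpin genes passed with 1 array left out, in place of 4. With KitW-sh against untreated TRAMP, 0 to 3 passed with 1 array left out, in place of 1, and the count was 0 from the deposited intensity without normexp, 0 with the limit passed on at least 2 arrays, where Serpinb2 was not tested, and 6 (1 higher, 5 lower) with only the groups compared, whose spread then comes from the 2 untreated arrays alone. The cause of the other changes was not tested. Among a chosen set of results that were not called, calls were gained 27 times, most often by Serpinb6a in the KitW-sh comparisons. Gains outside that set were not counted. Counting a gene where any of its probes passed, 25 were above background at a limit of 206.4 and 16 at 228.5, in place of 18.

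Same-numbered arrays of different groups correlated at 0.00199 to 0.0745 in their deviations from group means. The deviations of 2 arrays in a group mirror each other, so these correlations are not independent. A low correlation over all features cannot show that same-numbered samples share only a number. With the replicate number as a block, 2, 3 and 1 genes passed against wild type for untreated TRAMP and against untreated TRAMP for cromolyn and KitW-sh, in place of 3, 4 and 1. The calls of Serpinb6b (adjusted p = 0.0703), Serpini1 (0.0769) and Serpinb2 (0.101) were lost and that of Serpinb6a with KitW-sh was gained (0.0195). Against wild type with KitW-sh, Serpinb1a (0.0609) and Serpinb6b (0.0584) lost theirs under the block, and also with only the groups compared (0.0511 and 0.0727).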
